A study of Rattus norvegicus with 44 samples.

Results

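The oligodendrocyte precursor and lineage genes described here are 9 genes of the rat dentate gyrus: Cspg4 (ENSRNOG00000017208), Ptprz1 (ENSRNOG00000006030), Olig1 (ENSRNOG00000028648), Olig2 (ENSRNOG00000028658), Sox10 (ENSRNOG00000011305), Gpr17 (ENSRNOG00000025745), Bcas1 (ENSRNOG00000012906), Enpp6 (ENSRNOG00000009660) and Myrf (ENSRNOG00000028274). They were chosen by gene symbol, the rows of each gene identifier were summed, and all 9 were present among 18347 gene identifiers with a value and among the 15598 genes that passed the filter of a mean of at least 5 normalised reads. RNA came from the dentate gyrus (DG) of 1 hemisphere of 44 male F344 rats, with 1 library per rat. The 10 YNG rats (labelled 6 months) received vehicle. Among the older rats, 12 received vehicle (AV), 11 received ABT-263 (AA) and 11 received the pair dasatinib and quercetin, D+Q (ADQ). The older rats carry the label 12 months, the age at which dosing by oral gavage began, and they were older when the tissue was taken. ABT-263 (navitoclax) inhibits proteins of the BCL-2 family, dasatinib is a tyrosine kinase inhibitor and quercetin is a plant flavonoid. Both treatments are used as senolytics, agents meant to remove senescent cells.

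Oligodendrocyte precursor cells divide, spread through grey and white matter, and give rise to the myelinating oligodendrocytes of the adult brain. On the way they pass through a short committed stage that is neither precursor nor myelinating cell. Cspg4 encodes the NG2 proteoglycan on the surface of precursors and also of pericytes, and Ptprz1 encodes a receptor phosphatase of precursors and astrocytes. Olig1, Olig2 and Sox10 encode transcription factors that are present throughout the lineage. Gpr17 encodes a receptor of committed precursors, while Bcas1 and Enpp6 mark cells that are starting to make myelin, Bcas1 being present in mature myelin as well. Myrf encodes the factor that switches on the myelin genes and is kept on in mature oligodendrocytes.

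Promoter sequence was available for 4 of the 9 genes in the RefSeq table (GRCr8 build), namely Cspg4, Olig2, Gpr17 and Enpp6. The stretch upstream of the annotated gene was searched on both strands for CAGCTG (an E-box bound by basic helix-loop-helix factors such as OLIG2), ACAAAG and ACAATG (bound by SOX factors) and CTGGCAC (bound by MYRF), and no matches overlapped. Enpp6 and Olig2 are shown because each passed the test in at least 1 comparison and held a match, which stands in capitals, and the stretch of Enpp6 lies at chr16:52026790-52026978 on the minus strand and that of Olig2 at chr11:43961335-43961584 on the plus strand.
Enpp6: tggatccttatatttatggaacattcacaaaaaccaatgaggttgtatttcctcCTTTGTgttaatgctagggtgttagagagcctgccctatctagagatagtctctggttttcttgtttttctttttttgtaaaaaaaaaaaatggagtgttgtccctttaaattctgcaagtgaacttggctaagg
Olig2: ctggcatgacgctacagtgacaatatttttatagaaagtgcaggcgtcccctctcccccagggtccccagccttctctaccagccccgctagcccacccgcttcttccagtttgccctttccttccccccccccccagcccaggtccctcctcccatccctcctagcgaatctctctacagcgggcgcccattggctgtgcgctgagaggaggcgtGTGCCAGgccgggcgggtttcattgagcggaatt
Enpp6 held 1 ACAAAG site, read from the other strand, in 189 bases, and 12.7% of 33469 promoters held that motif in a window of that length. Olig2 held 1 CTGGCAC site, also on the other strand, in 250 bases, against 3.78% of promoters. None of the 4 motifs was found in the 250 bases of Cspg4 or of Gpr17.

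Library depth ranged from 10166556 to 24328321 estimated reads with a median of 16320219, and the lowest value of any of the 9 genes in any rat corresponded to 45 estimated reads. The rats fall into 2 series by name, a first with V1 to V6 and numbers up to 4011 (22 rats) and a second with the others (22 rats), each with rats of every group. The labels do not say what the series are, and joining the V names to the numbers was a choice made here. In the second series the AV rats are numbered 4566 to 4572, while its AA and ADQ rats lie between 4031 and 4110. Within that series, treatment and number block therefore cannot be told apart for AV against AA or ADQ. The defining markers of oligodendrocytes were present in every group, with YNG medians of 48773 normalised reads for Mbp and 571 for Mog, and that of Pdgfra, the growth factor receptor that defines precursors, was 795. Marker levels of the neighbouring hippocampal field CA1 varied widely among the libraries, and 7 rats (3 of AV, 3 of AA and 1 of YNG) had a summed CA1 level over 2 times the median. The ranges of the summed CA1 level were 2520 to 17628 in YNG, 2160 to 29163 in AV, 1976 to 43510 in AA and 2558 to 11776 in ADQ. None of these groups differed in any of the 6 CA1 genes by the test, and member results are also given without those 7 rats where that changed a call or moved a called value by over 1.5 times.

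**Figure D1:**
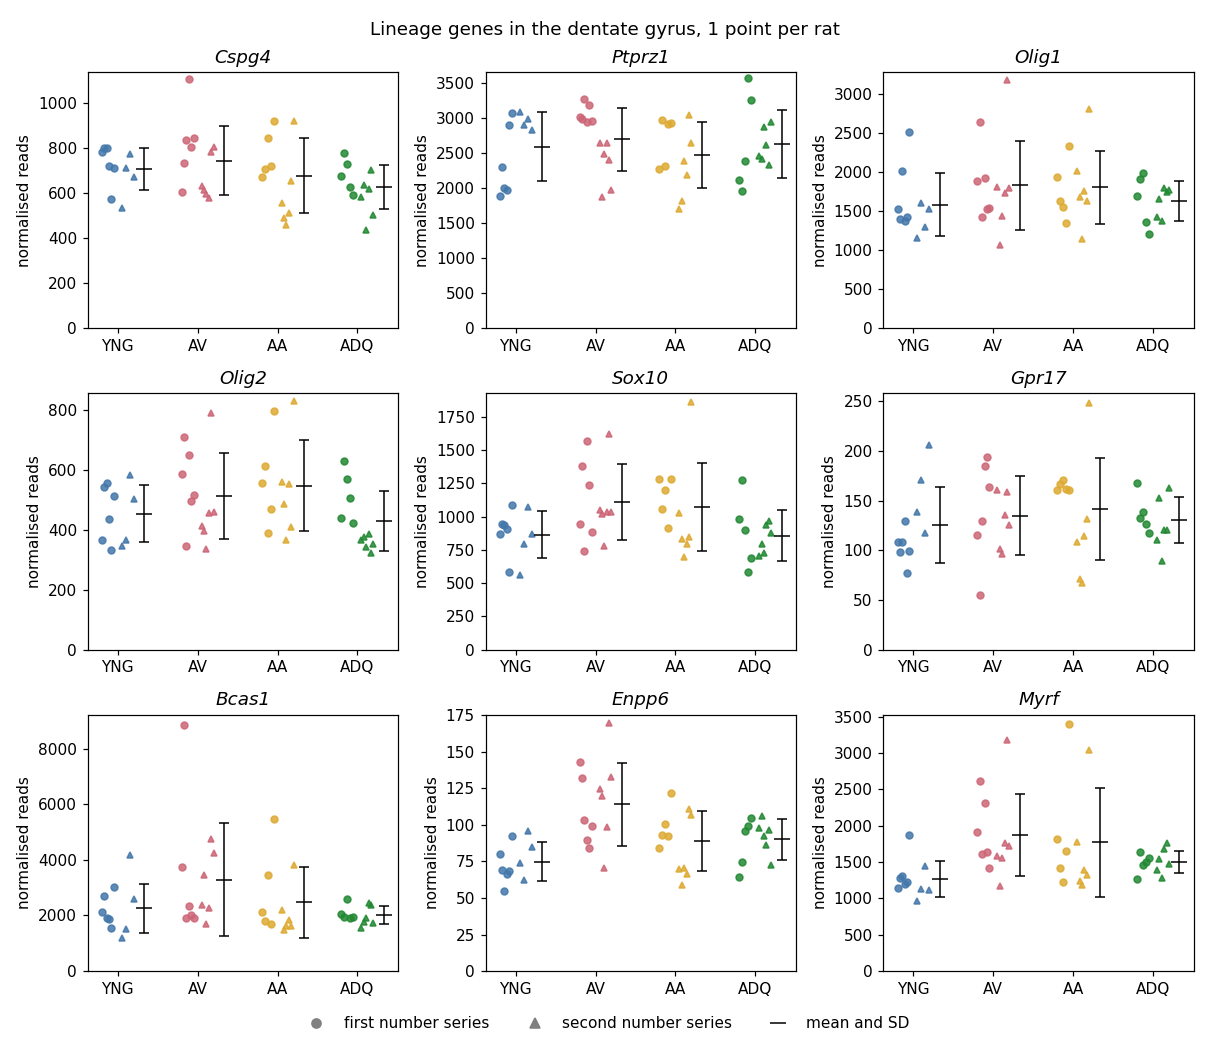
Normalised reads (vertical axis, from 0) of each of the 9 lineage genes in every rat, by group, with circles for the first number series, triangles for the second, and the group mean with its SD in black. For Enpp6, 9 of 12 AV rats lie above the highest YNG rat, while the groups of Ptprz1 overlap widely.

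Enpp6, Myrf and Sox10 were higher in AV than in YNG, and the other 6 genes did not pass the test. Enpp6, a choline phosphodiesterase of newly forming oligodendrocytes, ranged from 54.9 to 95.7 normalised reads in YNG (median 71.3) and from 70.6 to 170 in AV (median 112). The groups overlapped, but 9 of 12 AV rats were above the highest YNG rat and 11 of 12 were above the YNG median. The difference was 0.58 on the log2(value + 1) scale (SE 0.13, p = 6.56e-05, adjusted p = 0.0107). All such p-values here come from limma fitted to all 15598 genes, two-sided, with Benjamini-Hochberg adjustment over those genes, and a gene was called at the unadjusted p of 0.05 that the study used. Since the tissue was sequenced whole, more cells of a type and more RNA per cell cannot be told apart.

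Myrf ranged from 966 to 1869 normalised reads in YNG (median 1209) and from 1167 to 3173 in AV (median 1682). Only 4 of 12 AV rats exceeded the highest YNG rat, V6, though 11 of 12 exceeded the YNG median. The log2 difference was 0.53 (SE 0.15, p = 0.000852, adjusted p = 0.0413). Enpp6 and Myrf kept the call and the direction when any 1 of the 44 rats was left out, within each number series alone, and without the 7 rats of high CA1 markers (log2 0.48 and 0.44).

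Sox10 ranged from 564 to 1092 normalised reads in YNG (median 889) and from 742 to 1623 in AV (median 1035). Its log2 difference was 0.35 (SE 0.15, p = 0.0217, adjusted p = 0.164), with 4 of 12 AV rats above the highest YNG rat. That call was lost without YNG rat V5 (p = 0.0575) or V10 (p = 0.0604), and in either number series alone (p = 0.111 and 0.0812). So 3 of 9 members were higher and none lower at the unadjusted threshold, where 10.6% of all genes were higher and 10.7% lower, and 2 of 9 passed the adjusted threshold, which 2.35% of all genes passed. The median log2 difference was 0.19 over the 9 genes and -0.0017 over all genes.

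Bcas1, a myelin-associated protein of early and mature myelin, had the widest spread, from 1187 to 4158 normalised reads in YNG (median 2020) and from 1675 to 8838 in AV (median 2352). The highest AV value belonged to rat 3989, and the log2 difference of 0.45 (SE 0.23, p = 0.0528) fell short of the threshold. Under 5 of 15 alternative settings it passed. Olig1 differed by 0.19 (95% interval -0.10 to 0.47), Olig2 by 0.15 (-0.14 to 0.45) and Gpr17 by 0.09 (-0.28 to 0.47). The precursor surface genes Cspg4 and Ptprz1 differed by 0.06 (-0.18 to 0.29) and 0.06 (-0.17 to 0.29). These intervals reach to about the size of the Sox10 difference for Olig1, Olig2 and Gpr17, so a difference of that size was not excluded for them. The value of Ptprz1 pools log2 differences of 0.40 in the first number series and -0.35 in the second. Neither lies within its interval, which therefore does not show that Ptprz1 was unchanged.

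**Figure D2:**
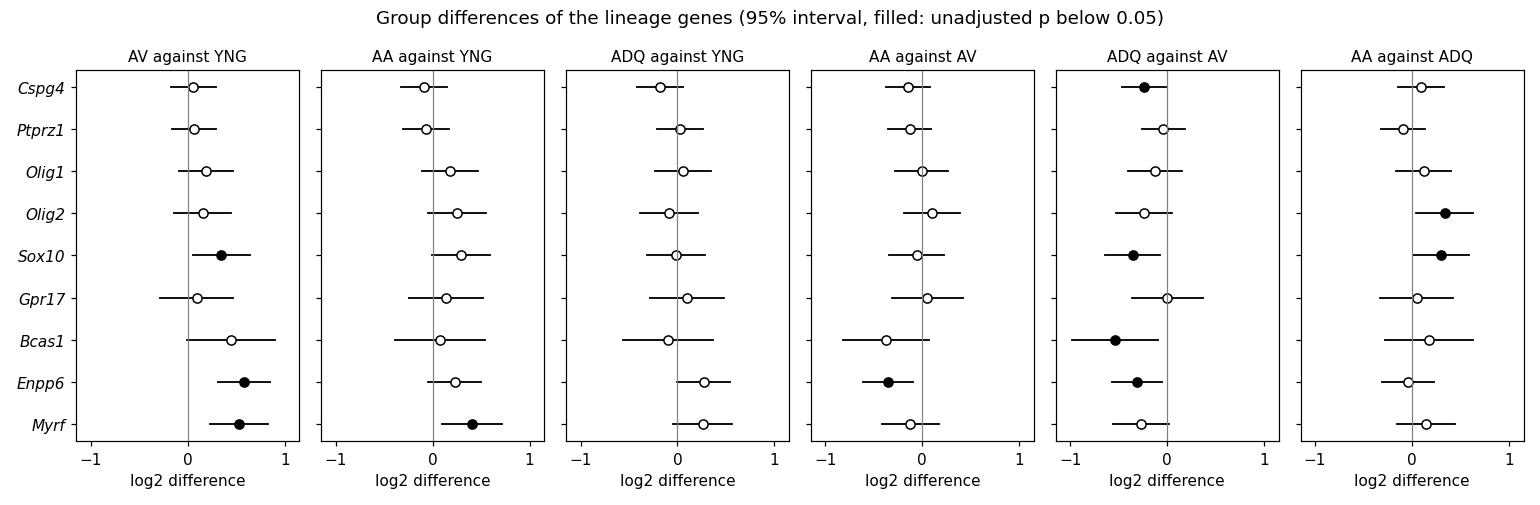
Log2 difference (horizontal axis, with 95% interval) of each lineage gene in 6 comparisons of groups, with filled points where the unadjusted limma p was below 0.05. Enpp6, Myrf and Sox10 are filled to the right for AV against YNG, and Bcas1, Sox10, Enpp6 and Cspg4 to the left for ADQ against AV.

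Of the 9 members, Myrf alone was called in AA against YNG, from 1181 to 3406 normalised reads (median 1412), with a log2 difference of 0.41 (SE 0.15, p = 0.0103, adjusted p = 0.0876). AA rats 3996 and 4107 had high Myrf values, and 10 of 11 AA rats were above the YNG median. Without the 7 rats of high CA1 markers its difference was 0.21 (p = 0.032), and the call was lost in the second number series alone (0.44, p = 0.0705). That is 1 of 9 genes higher and none lower, where 12.6% of all genes were higher and 14.1% lower.

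None of the 9 genes was called in ADQ against YNG by limma, where 13.5% of all genes were higher and 14.6% lower. Myrf ranged from 1268 to 1757 normalised reads in ADQ (median 1494), and all 11 ADQ rats were above the YNG median while none was above the highest YNG rat. Its log2 difference was 0.26 (p = 0.093), and that of Enpp6 was 0.27 (p = 0.0522), with ADQ values from 64.1 to 106 and 10 of 11 rats above the YNG median. A permutation test of 100000 resamples called both genes (p = 0.0101 and 0.0232), as did a limma fit of these 2 groups alone (p = 0.00744 and 0.0293) and the fit without the 7 rats of high CA1 markers (p = 0.000783 and 0.0205). Of ADQ and YNG rats, that last fit dropped V6 alone. Limma without only V6 gave the same log2 differences (0.33 and 0.31), with p = 0.0385 and 0.0329. Of 15 alternative settings, 6 called Myrf and 7 called Enpp6. These settings share the same rats and are not separate evidence. With the 3 older groups combined (mean of group means), Enpp6 was higher by 0.36 (SE 0.11, p = 0.00226, adjusted p = 0.0286) and Myrf by 0.40 (SE 0.13, p = 0.00254, adjusted p = 0.0303). No other member was called there, so that 2 of 9 were higher beside 15.7% of all genes higher and 16.7% lower, and 2 of 9 passed the adjusted threshold beside 14.9% of all genes. Enpp6 did not pass in the second number series alone (0.26, p = 0.166).

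ADQ and AV differed in 4 members, all lower in ADQ: Bcas1, Sox10, Enpp6 and Cspg4. Bcas1 ranged from 1536 to 2574 normalised reads in ADQ (median 1928), with 8 of 11 rats below the AV median and 1 below the lowest AV rat. Its log2 difference was -0.54 (SE 0.22, p = 0.0176, adjusted p = 0.436). Sox10 ranged from 581 to 1276 in ADQ (median 879), with 10 of 11 rats below the AV median and 4 below the lowest AV rat, and its difference was -0.36 (SE 0.14, p = 0.0155, adjusted p = 0.428). For Enpp6, all 11 ADQ rats were below the AV median and 1 was below the lowest AV rat, and the difference was -0.31 (SE 0.13, p = 0.0195, adjusted p = 0.444).

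Cspg4 ranged from 577 to 1107 normalised reads in AV (median 759) and from 438 to 779 in ADQ (median 628), and 10 of 11 ADQ rats were below the AV median. Its log2 difference was -0.24 (SE 0.11, p = 0.0382, adjusted p = 0.512). The 4 of 9 lower members stand beside 5.9% of all genes lower and 3.42% higher, and the median difference of the members was -0.24 against 0.008 over all genes. No gene of the table passed the adjusted threshold in this comparison. The calls of Bcas1 (-0.25, p = 0.16) and Enpp6 (-0.18, p = 0.171) were lost without the 7 rats of high CA1 markers, Bcas1 lost its call without AV rat 3989 (p = 0.054), and Cspg4 lost its call in 10 of 44 repeats with 1 rat left out (AV rats 3999, 4009, 4010, 4011, 4571 and 4572 and ADQ rats 4007, 4031, 4074 and 4110), with p up to 0.0956. Cspg4 also lost it with the CA1 level as covariate (-0.19, p = 0.0629) and with libraries scaled to the same total (-0.20, p = 0.0933), and Enpp6 with array weights (p = 0.0571). Within number series, all 4 genes were lower in both, and only Bcas1 in the second series was called.

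AA against AV had 1 member called, Enpp6, with AA values from 59.1 to 122 normalised reads (median 92.3). Of 11 AA rats, 10 were below the AV median and 4 below the lowest AV rat, and the log2 difference was -0.35 (SE 0.13, p = 0.00884, adjusted p = 0.999). This 1 of 9 lower stands beside 3.1% of all genes lower and 1.4% higher, and in the first number series alone the difference was -0.13 (p = 0.48). Myrf differed by -0.12 (p = 0.394) and Sox10 by -0.06 (p = 0.686). Without the 7 rats of high CA1 markers, Myrf (-0.22, p = 0.0261) and Cspg4 (-0.29, p = 0.0273) were called lower as well.

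Olig2 and Sox10 were called higher in AA than in ADQ over all rats, but neither was called without the 7 rats of high CA1 markers (0.18, p = 0.205, and 0.12, p = 0.403). The 6 CA1 genes had a median log2 difference of 0.49 in the same comparison, with none called. Olig2 ranged from 366 to 832 normalised reads in AA (median 553) and from 323 to 633 in ADQ (median 386), and its log2 difference was 0.34 (SE 0.15, p = 0.0255, adjusted p = 0.981). Sox10 differed by 0.30 (SE 0.14, p = 0.0447, adjusted p = 0.981). Among all genes 2.13% were higher and 2.4% lower. AA rat 4107, whose summed CA1 level was the highest, had the highest Olig2 and Sox10 values of AA, and without that rat both calls were lost (p = 0.0656 and 0.128). Olig2 also lost its call without AA rat 3996 or ADQ rat 4106, and Sox10 without any of 10 other rats (AA 3983, 3984, 3985, 3996 and 4035, and ADQ 4006, 4007, 4031, 4032 and 4074). Sox10 was not called with the CA1 level as covariate (0.22, p = 0.0688) or by the permutation test (p = 0.0644). AA and ADQ were not called different for Enpp6 (-0.04, 95% interval -0.31 to 0.22) or Myrf (0.15, -0.15 to 0.44).

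Other genes of the lineage, from lists chosen with earlier results known, were set beside the members. Of 20 myelin genes, 15 were higher in AV than in YNG and none lower, with a median log2 difference of 0.42. Of 13 other genes of committed and premyelinating cells, 5 were higher and none lower, with a median of 0.07. Of 12 other precursor genes, none was higher and 2 were lower, with a median of 0.08. Among all genes 10.6% were higher and 10.7% lower, with a median near 0, and the difference between the lists was not tested.

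The named genes of these lists were taken by the smallest p in older rats against YNG. Hapln2, which encodes a matrix protein of the node of Ranvier, was higher by 0.94 on the log2 scale (adjusted p = 0.00567) and Fa2h, an enzyme of myelin sphingolipids, by 0.47 (adjusted p = 0.0192). C1ql1, a secreted C1q-like protein of precursors, was lower (-0.53, adjusted p = 0.00605), as was the matrix protein gene Matn4 (-0.37, adjusted p = 0.0447), while Vcan, encoding versican, differed by 0.24 (p = 0.0662). Itpr2, a calcium channel gene of committed cells, was higher (0.40, adjusted p = 0.036), and Lims2 was called at the unadjusted threshold alone (0.36, p = 0.0466). Cnksr3 differed by 0.27 (p = 0.0505).

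Of 18 regulators, 3 were higher and 5 lower in older rats, beside 15.7% of all genes higher and 16.7% lower. Smarca4, encoding a chromatin remodelling ATPase, was lower by limma (-0.34, adjusted p = 0.00362), and so were the transcription factor genes Nfia (-0.67, adjusted p = 0.0054) and Zfp536 (-0.75, adjusted p = 0.0103). Of 17 signal genes, 5 were higher and 2 lower, beside the same shares. Pdgfa, encoding the ligand of Pdgfra, was lower (-0.38, adjusted p = 0.0121), while the chemokine gene Cxcl12 (0.47, adjusted p = 0.0157) and the Notch ligand gene Jag1 (0.61, adjusted p = 0.0373) were higher.

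In ADQ against AV, 10 of 20 myelin genes were lower and none higher, with a median of -0.30. Among all genes 5.9% were lower and 3.42% higher, and none passed the adjusted threshold, so the p-values of this paragraph are unadjusted limma values. The counts of 1 regulator of 18 and 1 precursor gene of 12 given below are near the share of all genes lower. Adamts4 (-0.49, p = 0.00498), Mbp (-0.49, p = 0.0181) and Klk6 (-0.40, p = 0.0222) had the smallest p of that list. Of the 13 premyelinating genes 4 were lower, led by Nkd1 (-0.48, p = 0.00154), Sirt2 (-0.17, p = 0.0268) and Cnksr3 (-0.35, p = 0.0288). Nkx6-2, a homeobox gene of oligodendrocytes, was the 1 regulator of 18 that was called (-0.56, p = 0.00267), whereas Myt1 (0.24, p = 0.136) and Id2 (0.19, p = 0.141) were not. Nkx2-2 was the 1 precursor gene of 12 called (-0.43, p = 0.0449), whereas Pcdh15 (0.26, p = 0.123) and C1ql1 (-0.20, p = 0.162) were not. No signal gene was called, the smallest p being those of Cntn1 (0.25, p = 0.0726), Cxcl12 (-0.26, p = 0.0869) and Tnr (0.22, p = 0.0969).

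Markers of other cell types moved between the same groups. In AV against YNG, 7 of 7 endothelial, 4 of 10 pericyte, 4 of 10 microglial and 3 of 12 astrocyte genes were higher and none lower, and in ADQ against AV, 5 of 7, 3 of 10, 6 of 10 and 3 of 12 were lower and none higher. Among all genes 10.6% were higher and 10.7% lower in AV against YNG. For ADQ against AV the shares were 3.42% higher and 5.9% lower. The summed endothelial level ranged from 1356 to 4394 normalised reads in YNG, from 2337 to 9133 in AV, from 2440 to 3764 in AA and from 2334 to 3002 in ADQ. The summed myelin level ranged from 52744 to 142072 in YNG, from 69096 to 207871 in AV, from 65349 to 182016 in AA and from 73612 to 94735 in ADQ. AV rat 3989 had the highest summed myelin, astrocyte, microglial and endothelial levels of its group. The defining markers Aqp4 of astrocytes and Pdgfrb of pericytes had YNG medians of 3623 and 451 and were above 0 in every rat. In AV against YNG, 3 of 10 neural progenitor genes were higher and 3 lower, 1 of 6 granule cell genes was lower, 1 of 7 CA3 and mossy cell genes was higher, and none of 5 choroid plexus genes was called. The counts of 1 gene lie near the shares of all genes. The part of these cell types in the member differences was not tested.

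**Figure D3:**
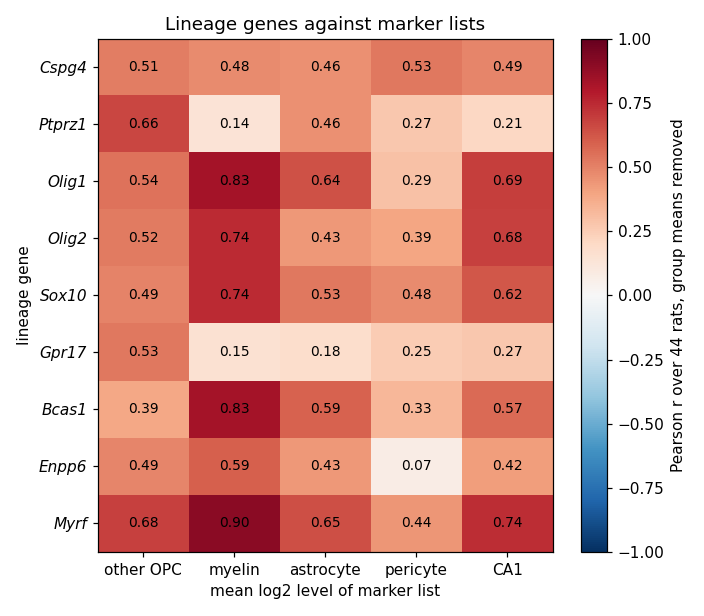
Pearson r (colour and number) over 44 rats between the log2 level of each lineage gene and the mean log2 level of each marker list, with group means removed. Myrf, Bcas1 and Olig1 stand highest with the myelin list (0.90, 0.83 and 0.83), while Gpr17 and Ptprz1 are near 0.15 and 0.14.

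Rat by rat, most members followed the myelin genes. With group means removed, Myrf correlated with the mean of the 20 myelin genes over 44 rats with Pearson r = 0.90 and Spearman rho = 0.80 (permutation test, adjusted p = 4e-05 over 36 relations, the raw p being the smallest that 100000 resamples can give). Olig1 (r = 0.83), Bcas1 (0.83), Olig2 (0.74), Sox10 (0.74), Enpp6 (0.59) and Cspg4 (0.48) were also related to it by the permutation test. The relation of Myrf held within the first (r = 0.83) and second (0.95) number series and without the 2 farthest rats (0.86). Cspg4 did so in the second series (0.73), and in the first its r was 0.12.

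Gpr17 (r = 0.15, adjusted p = 0.349) and Ptprz1 (r = 0.14, adjusted p = 0.382) were not related to the myelin list by the permutation test. Gpr17 had r = -0.48 with it in the first number series and 0.66 in the second. Ptprz1 followed the other precursor genes instead (r = 0.66, rho = 0.67, adjusted p = 4e-05), with 0.65 and 0.61 in the series, and had r = 0.46 with the astrocyte genes. By Pearson r, all 9 members were related to the precursor list (r from 0.39 to 0.68), which holds no member, 8 to the astrocyte list and 5 to the pericyte list. By Spearman rho, Bcas1 (0.27, permutation test, adjusted p = 0.0981) and Cspg4 (0.31, adjusted p = 0.0543) were not related to the precursor list. In the first number series r with it was -0.15 for Gpr17, 0.09 for Cspg4 and 0.17 for Sox10, and from 0.34 to 0.65 for the other members. With pericyte genes, Cspg4 had the highest r of the members over all rats (0.53, permutation test, adjusted p = 0.000585). It was not the highest within either series. There it had 0.53 and 0.51, while Sox10 had 0.61 in the first and Myrf 0.61 in the second. Over all rats, r of Cspg4 was similar with the precursor (0.51) and myelin (0.48) lists. With the CA1 genes, added after the data were seen, r ranged from 0.21 for Ptprz1 to 0.74 for Myrf, so members that followed myelin also followed CA1 markers.

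Among 13704 genes with a mean of at least 20, those whose pattern over the 44 rats was most like a member's (Pearson r, group means removed, a description) included myelin genes for 3 members. Bcas1 was most like Csrp1 (r = 0.94), Mbp (0.91) and AABR07028769.1 (0.91). Olig1 was most like Pnkd (0.90), Cldn11 (0.88) and Cnp (0.86), and Olig2 was most like Fa2h (0.81), Clec11a (0.80) and Cdh10 (0.79). Sox10 was most like Rgma (0.90), Cdc42ep2 (0.88) and Gal3st1 (0.87), the last an enzyme that makes the myelin lipid sulfatide. The other members had no gene of the lineage lists among their 3. Myrf was nearest to Sema5b (0.90), Dpysl5 (0.90) and Kremen1 (0.90), and Sema5b is a gene of the granule cell list used above. Enpp6 was nearest to Pogk (0.78), Tbl1x (0.75) and Rasgrp3 (0.74), and Cspg4 to Tln1 (0.82), Caskin2 (0.76) and Shank1 (0.74). Ptprz1 was nearest to LOC108348175 (0.88), Amot (0.87) and Prex2 (0.86), and Gpr17 to Myorg (0.83), Nacc2 (0.77) and Scrt1 (0.76).

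For Ptprz1 and Gpr17, the differences between older and YNG rats had opposite signs in the 2 number series. In the first series Ptprz1 ranged from 1897 to 3084 normalised reads in YNG (median 2150) and from 2942 to 3273 in AV (median 3007). In the second it ranged from 2828 to 3089 in YNG (median 2950) and from 1878 to 2650 in AV (median 2453), so that all 6 AV rats were below all 4 YNG rats. The log2 difference was 0.40 in the first and -0.35 in the second series, and the interaction had p = 0.000647 (limma, adjusted p = 0.0297). Across all genes, 3406 of 15598 had an interaction p below 0.05 in that comparison. In the second series alone 984 of them were called in AV against YNG, and genes whose groups did not overlap were not counted.

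Gpr17 in AA against YNG had log2 differences of 0.68 and -0.46 in the first and second series (interaction p = 0.00283, adjusted p = 0.0845). In the first series its AA values lay between 161 and 171 normalised reads and its YNG values between 76.7 and 129, without overlap. In the second they were 67.4 to 249 and 117 to 206. Across all genes, 4465 of 15598 were called in AA against YNG in the first series alone. In the same comparison 2696 had an interaction p below 0.05 by limma, and 280 passed adjustment. The share of all genes without overlap was not counted. Enpp6 and Myrf were higher in AV than in YNG in both series.

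**Figure D4:**
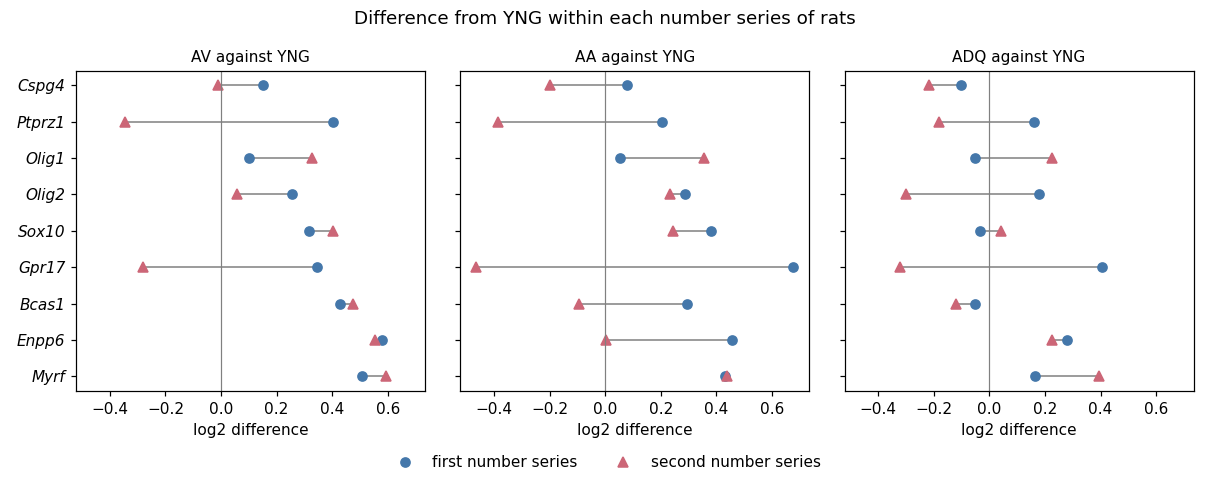
Log2 difference from YNG (horizontal axis) of each lineage gene within the first (circles) and second (triangles) number series, for AV, AA and ADQ. In AV, Enpp6 and Myrf lie to the right of 0 in both series, while for Ptprz1 in AV the circle is at 0.40 and the triangle at -0.35.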

How the data were processed

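Poly(A) RNA of the dentate gyrus was sequenced on the Ion platform, and per the methods of the study the authors aligned reads to rn6 with STAR 2.5.3a in Partek Flow, applied median-ratio scaling and used DESeq2. The signal values deposited by the authors are estimated reads divided by a size factor per library. Low values were whole multiples of 1 read (within 0.05 reads, below 20 reads) for 79.0% to 83.4% of values in each library, so they were treated as normalised values and no count model was used. The treatment of older rats was read by rat name from the table of sample attributes that the authors deposited, since the labels give age alone.

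The rows of a gene were summed (24694 rows, 18347 identifiers), genes with a mean of at least 5 were kept (15598), and log2(value + 1) was fitted with limma 3.58.1 (empirical Bayes with trend) in R 4.3.3 (tables read by the data.table package, version 1.17.8), with all 4 groups in 1 fit. The 7 comparisons are the 6 pairs of groups and all older rats against YNG. Correlations and figures were made with matplotlib 3.10.9, scipy 1.17.1, pandas 2.3.3 and numpy 2.4.6 under Python 3.11.15. The limma step alone was tested on simulated data, for AV against YNG. The members and lists were chosen with earlier results of these data known. Named genes were the 9 members, the 3 genes of smallest p of each lineage list in 2 comparisons (older rats against YNG and ADQ against AV), 6 defining markers, and the 3 genes most like each member, of which 1 gene is not reported here. Alternatives were 2 other pseudocounts, 2 filters, 2 scalings, the largest row of a gene, other fits and weights, the number series, each rat left out, and, added after the data were seen, 2 treatments of CA1 markers. Tissue is from separate animals, so p-values reflect spread between rats.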

Additional observations from a re-analysis of the deposited data

Results flagged for a closer look

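Differences between the number series of rats were tested for the 9 genes in 7 comparisons, 63 tests in all, and 7 had an interaction p below 0.05 by limma, of which 1 passed adjustment over all genes. Each value is the log2 difference in the first series minus that in the second, and the comparisons with YNG share the YNG rats. For Ptprz1 it was 0.75 in AV against YNG (p = 0.000647, adjusted p = 0.0297), 0.59 in AA against YNG (p = 0.00686, adjusted p = 0.124), 0.56 in older rats against YNG (p = 0.00217, adjusted p = 0.0501) and -0.41 in ADQ against AV (p = 0.0444, adjusted p = 0.961). For Gpr17 it was 1.14 in AA against YNG (p = 0.00283, adjusted p = 0.0845), 0.73 in ADQ against YNG (p = 0.0497, adjusted p = 0.561) and 0.83 in older rats against YNG (p = 0.00785, adjusted p = 0.0957). Among all genes, 3406 of 15598 had an interaction p below 0.05 in AV against YNG and 697 passed adjustment. For older rats, AA and ADQ, each set against YNG, the genes with such a p numbered 3161, 2696 and 1387. Between the older groups they numbered 734 (AA against AV), 682 (AA against ADQ) and 628 (ADQ against AV). Such a p was therefore common among all genes, and the count of 7 does not set the members apart. What the series stand for is not given in the sources used here.

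No YNG rat stood apart from its group by Dixon's criterion in any of the 9 genes, and the larger groups were not tested in that way. Myrf in rat V6 fell just short of it, with a gap to the next rat of 0.464 of the YNG range.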

How the results depend on the processing

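Scaling every library to the same total moved the median of all genes by 0.10 in AV, 0.15 in AA, 0.14 in ADQ and 0.13 in older rats against YNG (log2), and changed the split of calls in AV against YNG from 1651 higher and 1675 lower to 2818 and 656. The members called then numbered 5 in AV, 5 in AA, 2 in ADQ and 4 in older rats against YNG, in place of 3, 1, 0 and 2. Of 15598 genes, 3474, 5174, 5223 and 5966 were called there, in place of 3326, 4153, 4386 and 5058. Upper quartile scaling gave 2 in AA and 1 in ADQ against YNG. Array weights gave 2 in AA and 4 in ADQ against YNG and 3 in AA against AV, beside 7068, 8101 and 921 of all genes. The counts against YNG lay below the share of all genes. The number series as covariate gave 2 in AA against YNG, beside 4481 of all genes. In the first series alone 3 were called in AA and 4 in older rats against YNG, and 0 when AA was set against AV, ADQ against AV, or AA against ADQ. All genes called there numbered 4465, 5925, 601, 885 and 933. In the second alone ADQ differed from AV in 1 member, and AA from ADQ in 1, beside 1519 and 648 of all genes. Groups fitted alone gave 2 in ADQ against YNG, beside 5005 of all genes. The permutation test, run on members alone, gave 2 in ADQ against YNG and 1 in AA against ADQ. With the CA1 level as covariate 2 were called in AA against YNG, 2 in ADQ against YNG, 2 in AA against AV and 1 in AA against ADQ. All genes called there numbered 4230, 4819, 808 and 591. Without the 7 rats of high CA1 markers 2 were called in ADQ against YNG, 3 in AA against AV, 2 when ADQ was set against AV and 0 in AA against ADQ. All genes called there numbered 5025, 643, 1276 and 590. The causes were not tested, beyond the fewer rats of the last settings.

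Leaving out each of 44 rats gave 2 to 4 members in AV, 1 to 3 in AA, 0 to 2 in ADQ and 2 to 2 in older rats against YNG, 1 to 2 in AA against AV, 3 to 5 when ADQ was set against AV and 0 to 2 in AA against ADQ. Ptprz1 reversed in the second number series, to -0.35 in AV and -0.31 in older rats against YNG. Of 945 single values under other settings, 26 lost and 50 gained a call, and of 2772 with 1 rat left out, 27 lost and 39 gained one. Marker relations called fell from 29 of 36 to 15 in the first series alone. The tests with edgeR and DESeq2 were not run, since whole reads came out for most low values but not for nearly all of them. No paired analysis was possible because each rat is a separate animal and the labels give no number that pairs rats across groups. The lowest value of a member in any rat was about 45 estimated reads (Enpp6).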

Other observations

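Between members, with group means removed and as a description over 44 rats, Olig1 and Myrf had the highest Pearson r (0.79), followed by Olig2 and Myrf (0.71) and Olig1 and Sox10 (0.70). Bcas1 and Enpp6, both of newly forming oligodendrocytes, had r = 0.63, while Enpp6 and Gpr17 had 0.16. Ptprz1 had r of -0.18 with Sox10 and 0.32 with Enpp6. Values of 1 rat share a library, and its depth and dissection enter every pair.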
